A study of Saccharomyces cerevisiae with 46 samples.

Results

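Ty3 is a long terminal repeat retrotransposon of budding yeast, and 3 annotated genes of its full-length copies were followed through the 46 samples of this series. YGR109W-B and YGR109W-A belong to the copy on chromosome VII, and YIL082W-A belongs to the copy on chromosome IX. These 3 genes, of 6477 in the gene table, overlapped 12 of the 12079 nuclear bins of 1 kb, and the 3 bins on either side of each copy gave 12 flanking bins. The elements were chosen from these data, because the chromosome VII copy had higher coverage in the non-evolved samples of lines A1 and A4 than in the rest. That contrast is therefore given as a description without a test.

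A Ty3 element copies itself through an RNA intermediate: its RNA is packed into virus-like particles, reverse transcribed, and the DNA copy is inserted into the genome. Insertion is directed to the start sites of genes read by RNA polymerase III, mostly tRNA genes, where the initiation factor TFIIIB is bound, and transcription of the element is induced by mating pheromone. The same repeat sequence flanks each full-length copy on both sides. Because full-length copies are nearly identical in sequence, short reads from one copy can be placed on another.

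The study followed chromosome copy number in relation to the loss of Bub3, a protein of the spindle assembly checkpoint, in genomic DNA of overnight cultures of strain W303, a common laboratory background. Each of 20 lines, coded such as A1 or G4, gave a non-evolved and an evolved sample, and lines C2, E3 and G4 also gave a sample labelled evolved_Bub3. For the wildtype LY1 there was a single library per state, hence no replicates. All groups share the strain, and the labels used here give neither the genotype or ploidy of the lines, nor the meaning of evolved_Bub3, nor how the lines relate to each other.

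Reads recovered from the ratios numbered 1961866 to 3770032 per sample, and the median bin held 130 to 292 reads. The library of A1 non-evolved was the shallowest, at 130 reads per median bin, and that of A4 non-evolved held 174. Chromosome XI stood 0.99 to 1 above the sample baseline (log2) in A1 and A4 in both states, and chromosome XII 0.98 to 0.99 above it in their non-evolved samples only, against -0.05 to 0 in the other 44 samples. The bin of chromosome XV that overlaps BUB3 and no other gene stood at 0.06 in A1 non-evolved and -0.22 in A4 non-evolved, relative to its chromosome. Over the other 18 non-evolved lines it ran from -1.96 to 0.11 (median -1.55). In the wildtype its 3 values ran from -0.05 to 1.23 (median 0.06). Centring on each sample's own chromosome median removed the whole-chromosome gains from the values below.

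On the R64 assembly, YGR109W-B runs from position 707610 to 712254 of chromosome VII (4645 bp), and YGR109W-A from the same start to 708482 (873 bp). YGR109W-A encodes Gag3, the structural protein of the particle, and YGR109W-B the Gag3-Pol3 polyprotein made by a ribosomal frameshift, which holds the protease, reverse transcriptase, RNase H and integrase. YIL082W-A runs from 205635 to 210132 of chromosome IX (4498 bp), 147 bp shorter than YGR109W-B, and lies in a copy reported as unable to transpose. The tRNA gene YNCG0030C, at 707108 to 707179, ends 430 bp before YGR109W-B. On chromosome IX the tRNA gene YNCI0005W, at 210665 to 210738, starts 532 bp after the end of YIL082W-A. Each copy overlapped 6 bins, of which 4 lay wholly within the long gene, called inner bins below. The outer pair are edge bins, which also hold sequence outside the gene. YGR109W-A covers parts of 2 bins that also hold YGR109W-B, so its copy number could not be separated from that of the longer gene.

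In 44 of the 46 samples the chromosome VII copy was covered at less than its chromosome's level, while in A1 and A4 non-evolved its inner bins stood close to that level. A level is here the mean log2 copy ratio of the bins named minus the median log2 ratio of their chromosome in the same sample. Over the 4 inner bins it was -0.09 in A1 non-evolved and -0.28 in A4 non-evolved. The other 44 samples ran from -1.35 (C2 evolved) through a median of -1.15 to -0.92 (E3 evolved), with an SD of 0.10. Nothing overlapped: A4 non-evolved lay 0.65 above the highest of the other 44. The mean of A1 and A4 exceeded the median of the others by 0.97, a 1.95-fold higher copy ratio. Over all 6 overlapping bins the values were -0.53 in A1 and -0.73 in A4, against -1.57 to -1.15 (median -1.35), a difference of 0.72 or 1.65-fold.

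In counts, the inner bins of A1 non-evolved held 481 reads where the chromosome median predicts 508, a ratio of 0.947 (exact 95% Poisson interval 0.864 to 1.04). Those of A4 non-evolved held 568 reads of 680 predicted, a ratio of 0.835 (0.768 to 0.907). Thus the interval of A1 included the chromosome level and that of A4 lay below it. After evolution the same lines gave 493 of 1036 reads in A1, a ratio of 0.476 (0.435 to 0.520), and 318 of 792 in A4, a ratio of 0.402 (0.359 to 0.448). The remaining 42 samples had ratios of 0.404 to 0.531 (median 0.461), so A1 evolved lay among them and A4 evolved just below the lowest. These intervals cover counting error only, since the reads carry no molecular identifiers and may not each stand for a separate molecule.

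The difference was spread over the whole inner part of the chromosome VII copy. In the first inner bin, which also holds the end of YGR109W-A, the level was -0.13 in A1 non-evolved and -0.35 in A4 non-evolved, against -2.02 to -0.78 (median -1.31) in the others. In the second it was -0.32 and -0.58, against -1.87 to -0.95 (median -1.28). The third bin stood at -0.07 and -0.18, against -1.70 to -0.82 (median -1.20). In the fourth the values were 0.16 and 0.01, against -1.22 to -0.50 (median -0.73). All 4 inner bins thus had both A1 and A4 non-evolved above the range of the other 44 samples. A1 exceeded A4 in each of the 4, by 0.11 to 0.26. Over the mean of the 4 bins A1 stood at -0.09 and A4 at -0.28, beside an SD of 0.10 over the other 44 samples. Taken singly, the bins varied over the other samples with an SD of 0.18 to 0.25, which is the spread of samples and not of differences between them. Counting alone gives an SD of 0.13 to 0.16 for these bins.

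In the edge bins both samples lay within the range of the others. Since these bins also hold sequence outside the gene, they cannot show where the difference ends. The bin across the start of YGR109W-B, which also contains the tRNA gene YNCG0030C, was sparsely covered everywhere: its level was -2.47 in A1 non-evolved and -2.95 in A4 non-evolved, against -3.83 to -2.19 (median -2.95) in the others, on 23, 22 and a median of 28.5 reads. The bin across its end stood at -0.36 and -0.32, inside the -0.86 to -0.24 of the others (median -0.54). None of the 6 flanking bins had A1 and A4 both above or both below the range of the others, though in the bin shared by CLB1 and CLB6 A1 stood above it at 0.28 and A4 below it at -0.40 (others -0.36 to 0.20). In the bin of CLD1 and YGR111W farthest from the copy, A1 stood at 0.30, above the highest of the others (0.24), and A4 at 0. Among them are the B-type cyclin genes CLB1 and CLB6 before the copy, and CLD1, which encodes a cardiolipin-specific deacylase, and YGR111W after it. Median levels of the flanking bins over the other 44 samples were -0.05 to 0.02.

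**Figure D1:**
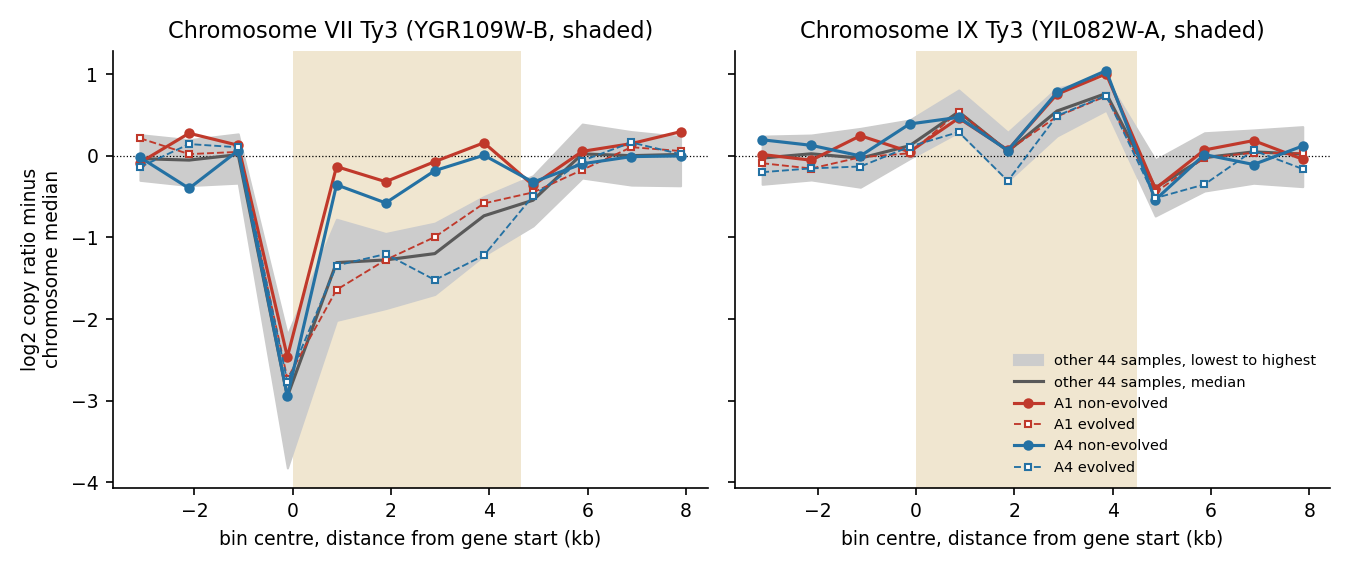
Log2 copy ratio minus the chromosome median of each 1 kb bin (y axis) against the distance of the bin centre from the gene start in kb (x axis), for the chromosome VII copy (left) and the chromosome IX copy (right). Filled circles are A1 and A4 non-evolved, open squares the same lines evolved, the dark line and grey band the median and range of the other 44 samples, and the tan area is the gene. On chromosome VII both filled circles lie above the band in the 4 inner bins, and on chromosome IX in the last inner bin.

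The chromosome IX copy was covered above its chromosome's level in every sample. Over its inner bins the copy ratio was 1.53 in A1 non-evolved (769 reads, 1.43 to 1.64) and 1.55 in A4 non-evolved (1057 reads, 1.46 to 1.65). The other 44 samples ran from 1.28 (A4 evolved) through 1.41 to 1.57 (C4 non-evolved). A1 and A4 non-evolved lay in the upper part of that range without leaving it. Their mean log2 level over the inner bins exceeded the median of the others by 0.11, or 1.08-fold, beside an SD over the others of 0.07. A1 evolved had a ratio of 1.39 (1.32 to 1.46).

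Coverage was uneven along the 4 inner bins of YIL082W-A. Their median levels over the other 44 samples were 0.54, 0.06, 0.55 and 0.77 from the first to the last. A1 and A4 non-evolved gave 0.46 and 0.47 in the first, and 0.07 in both samples in the second. In the third they stood at 0.76 and 0.78, within the 0.24 to 0.83 of the others. Only in the last inner bin were both above the others, at 1.01 and 1.05 against 0.56 to 0.95. Neither edge bin separated them: the first gave 0.05 and 0.39 against -0.03 to 0.44, and the last, which reaches the tRNA gene YNCI0005W and AIR1, gave -0.40 and -0.54 against -0.74 to -0.05. In the flanks lie KTR7, a mannosyltransferase gene, SDS3 of the Rpd3 histone deacetylase complex, the coenzyme A synthesis gene CAB2, the RNA surveillance gene AIR1, and THS1, the threonyl-tRNA synthetase gene. Their bins had medians of -0.03 to 0.05 over the others.

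Because reads of nearly identical copies can be divided between them, the copy ratios of both copies were also added. The settings for reads that match several places are not given in the sources used here. Over the inner bins the summed ratio was 2.48 in A1 non-evolved and 2.39 in A4 non-evolved. The other 44 samples had 1.68 to 2.01 (median 1.88). The sum includes the chromosome VII values on which the elements were chosen, and how reads were divided between the copies was not tested. Position by position, taking bins at like distances from the gene starts (391 bp on chromosome VII with 366 bp on chromosome IX, and then in steps of 1 kb), the sums in A1 were 2.29, 1.85, 2.64 and 3.13. In A4 they were 2.17, 1.72, 2.60 and 3.07, against medians of 1.86, 1.44, 1.90 and 2.32 in the others. At the first position A4 stayed just below the highest of the others (2.19), and at the other 3 positions both samples lay above all of them. That the copies line up base for base was not tested.

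**Figure D2:**
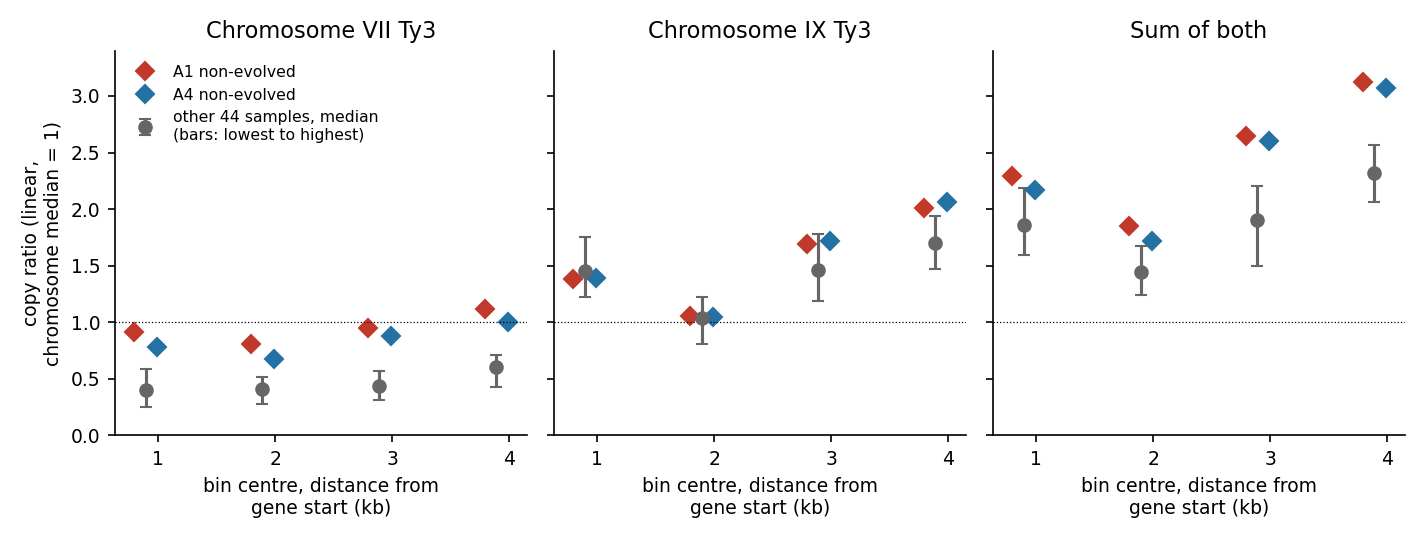
Copy ratio on a linear scale, with the chromosome median at 1 (y axis), of the 4 inner bins against the distance of the bin centre from the gene start in kb (x axis, chromosome VII distances in all 3 panels). Red and blue diamonds are A1 and A4 non-evolved, grey points with bars the median and range of the other 44 samples. The first panel shows chromosome VII with both samples above the bars throughout, the second chromosome IX with both above at the last position, and the third their sum.

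Across the genome, A1 and A4 non-evolved were both above the range of the other 44 samples in 25 of 11810 bins (0.212%), and 4 of the 6 overlapping bins of the chromosome VII copy and 1 of 6 on chromosome IX were among these. Since the elements were chosen on that contrast, nothing is read from this share. The 4 bins of the chromosome VII copy had differences of 0.82 to 1.07, and the 21 bins elsewhere 0.21 to 0.35. These sizes rest on the same choice. In 3 bins (0.0254%) both samples were at least 1 above the median of the others, and 1 of these, the third inner bin, belonged to the chromosome VII copy. The other 2 of these bins held at most 3 reads in A1 and A4. Among the 11666 bins with a median of at least 20 reads, 6 (0.0514%) had both samples at least 0.5 above that median: the 4 inner bins, the BUB3 bin, and a bin of the sodium pump gene ENA1. In the BUB3 and ENA1 bins both samples lay within the range of the others, which at BUB3 reached 1.40.

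By mean difference the inner bins ranked 2 to 5 of those 11666, a description only, since the elements were chosen on that contrast. The first rank went to the last bin of chromosome IX (439001 to 439888, no annotated gene), whose 1.27 came from A1 alone, at 0.34, with A4 at -2.77. A bin of YNL054W-B on chromosome XIV (523001 to 524000) ranked 7, with a difference of 0.58. There the levels were 0.67 and 0.95 in A1 and A4 non-evolved and 0.85 and 0.90 in the same lines evolved, and the other 42 samples reached at most 0.52. At that bin A1 and A4 stood apart in both states, and at the chromosome VII copy only before evolution.

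**Figure D3:**
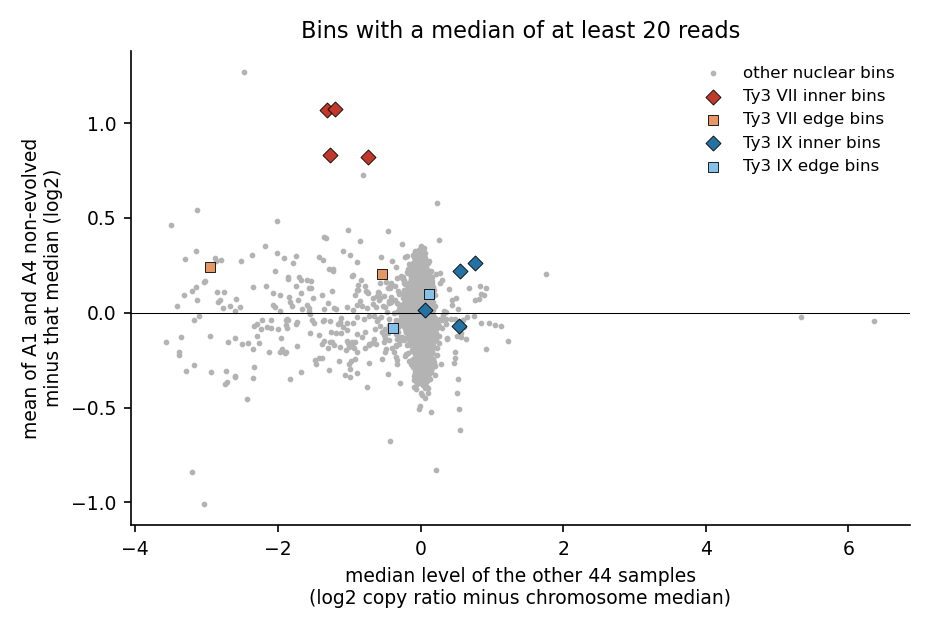
Mean level of A1 and A4 non-evolved minus the median of the other 44 samples (y axis, log2) against that median (x axis, log2 copy ratio minus the chromosome median), 1 point per nuclear bin with a median of at least 20 reads. The 4 inner bins of the chromosome VII copy (red diamonds) lie at 0.82 to 1.07, below a single grey point at 1.27, and the bins of the chromosome IX copy (blue) at most 0.26 above 0.

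A measured value that moved with this contrast was the gain of chromosome XII, which no sample but these carried. The single bins outside the range of the others did so by the rule that picked them. The library depth of A1 and the levels of the LEU2 and BUB3 bins moved with it only in part. At LEU2 on chromosome III the level was 0.02 in A1 and -0.16 in A4 non-evolved, against -0.10 to 1.23 (median 0.55) in the others. It was 0.24 in A1 evolved, 0.14 in A4 evolved and 0.03 to 0.17 in the wildtype, samples in which the chromosome VII copy was low. The depth of G4 evolved_Bub3, 136 reads per median bin, was close to that of A1 non-evolved, and its chromosome VII copy had a ratio of 0.457. The gain of chromosome XI likewise moved with it only in part. A1 and A4 non-evolved carried it. A1 and A4 evolved kept it at 0.99 to 1, with the chromosome VII copy at a ratio of 0.402 to 0.476. The BUB3 bin was also near its chromosome's level in both lines evolved, at 0.09 in A1 and -0.07 in A4. Among the other 18 non-evolved lines it reached 0.11, and the inner levels of their chromosome VII copy ran from -1.33 to -0.97. The wildtype, with its BUB3 bin at -0.05 to 1.23, had a low chromosome VII copy, with inner levels of -1.34 non-evolved, -1.07 evolved and -1.15 in its evolved_Bub3 sample. By library number, A1 and A4 non-evolved were 2 and 5, and libraries 3 and 4 between them, A2 and A3 non-evolved, stood at -1.12 and -1.06. The part of any of these in the difference was not tested.

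The paired lines also allow a comparison of the evolved with the non-evolved state, and neither copy differed detectably. For the chromosome VII copy over all 6 bins, the level was -1.28 ± 0.24 (SD, n = 20) non-evolved and -1.34 ± 0.11 evolved. The change within a line was -0.06 ± 0.26, with 11 of 20 lines higher after evolution (two-sided sign-flip permutation test, p = 0.382). Line A1 fell by 0.75 and A4 by 0.70, and the largest rise, in B3, was 0.29. Since A1 and A4 were chosen on their non-evolved values, the lines without them are the independent part: there the change was 0.02 ± 0.13 (n = 18), higher in 11 lines (permutation test, p = 0.530). Among those 18 the largest fall was 0.19, in A3.

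The level of the chromosome IX copy was 0.28 ± 0.06 (SD, n = 20) in either state, with 10 of 20 lines higher after evolution (sign-flip permutation test, p = 0.953). Without A1 and A4 the change was 0.02 ± 0.08 (n = 18, permutation test, p = 0.407). The widest changes in single lines were a fall of 0.23 in A4 and a rise of 0.17 in F4.

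In the test of each bin over the 20 lines with limma, with Benjamini-Hochberg adjustment over all bins, 1 of 11810 bins passed (0.00847%), and none of the 12 Ty3 bins or the 12 flanking bins did. That 1 bin lay on chromosome XV (595001 to 596000), outside both copies, with a change of -0.53 (SE 0.09, adjusted p = 0.0387). At an unadjusted p under 0.05 there were 560 bins. The lowest unadjusted p among the Ty3 bins was 0.0957 (limma), in the fourth inner bin of YGR109W-B, with a change of -0.12 (SE 0.07). That fit includes A1 and A4, which were chosen on their non-evolved values. Without A1 and A4, limma called 0 of 11810 bins (0%), with 566 at an unadjusted p under 0.05. The fourth inner bin of YGR109W-B then changed by -0.03 (SE 0.05, limma, unadjusted p = 0.580).

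The evolved_Bub3 samples had the chromosome VII copy at -1.29 in C2, -1.43 in E3 and -1.36 in G4, over the 6 bins. These lay within the -1.57 to -1.15 of the evolved samples. Against the evolved sample of the same line the change was -0.07 ± 0.31 (SD, n = 3), higher in 1 of 3 lines (exact sign-flip test, p = 0.75), from a fall of 0.29 in E3 to a rise of 0.28 in C2. On chromosome IX it was -0.01 ± 0.06, higher in 2 of 3 lines (exact sign-flip test, n = 3, p = 1). With 3 lines the smallest p this test can give is 0.25, so a difference could not have passed the threshold. In the wildtype the chromosome VII copy stood at -1.47 non-evolved, -1.31 evolved and -1.38 in the evolved_Bub3 sample.

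**Figure D4:**
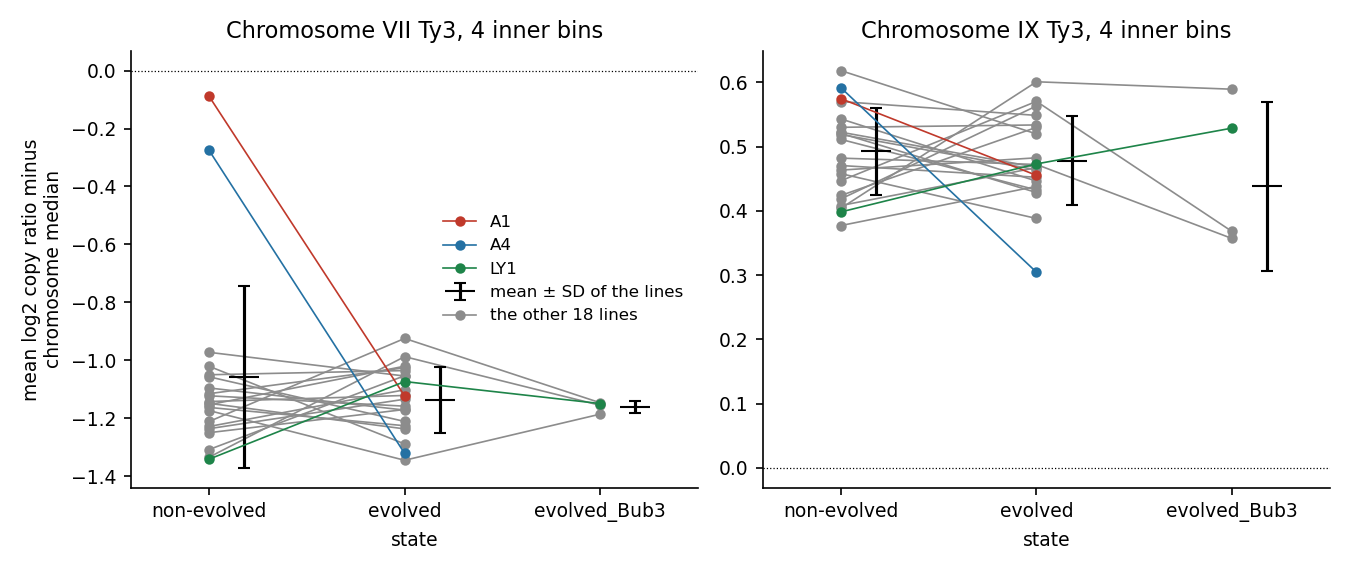
Mean log2 copy ratio minus the chromosome median over the 4 inner bins (y axis) of the chromosome VII copy (left) and the chromosome IX copy (right) by state (x axis), 1 point per sample, with lines joining samples of the same line. Red is A1, blue A4, green the wildtype LY1, grey the other 18 lines, and black bars the mean ± SD of the lines without LY1. A1 and A4 start at -0.09 and -0.28 on the left and end among the others.

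The levels of the copies were weakly related across samples. Over the 46 samples Pearson's r between their 6-bin levels was 0.23 and Spearman's rho 0.18, and over the 44 samples without A1 and A4 non-evolved 0.06 and 0.11. The points share library depth, and the first values include the pair of samples by which the elements were chosen. Among the 44, pairs of inner bins of the same copy had r of -0.21 to 0.25 on chromosome VII and -0.12 to 0.43 on chromosome IX.

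Of 11786 bins ranked, those with the highest r with the chromosome VII copy over 46 samples lay in CHS7 (r = 0.55), SQS1 (0.52), VIK1 (0.51), MET1 (0.50) and SNR86 (0.50). Its own inner bins reached 0.67 to 0.81. These values include the pair of samples by which the elements were chosen. In the 5 bins elsewhere the mean of A1 and A4 non-evolved exceeded the median of the others by 0.22 to 0.33. Over the 44 samples without A1 and A4 non-evolved these were bins of RPL20B and SPS4 (0.52), THO2, SQS1 and FES1 (each 0.51), and RFS1 and YBR053C (0.49). The SQS1 bin over 44 samples (226001 to 227000 of chromosome XIV) was not the one over 46 (225001 to 226000). Over the 44 samples the copy's own inner bins, though part of its level, had r of only 0.21 to 0.48. That was below all 5 bins named for the 44. For the chromosome IX copy over 46 samples the closest bins lay in SEC7 and YIL067C (each 0.54), YCL002C and RER1 (0.53), CDC45 (0.53) and TRK1 (0.51). Over 44 they lay in YIL067C (0.56), VPS8, SEC7 and a bin without an annotated gene (each 0.54), and GIP3 (0.53). These are the top of a long ranking and are given as a description.

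Genes of host steps that Ty3 uses were listed beside it. The 9 RNA polymerase III initiation factor genes (BRF1, BDP1 and SPT15 of TFIIIB, and TFC1, TFC3, TFC4, TFC6, TFC7 and TFC8 of TFIIIC) all matched the gene table. In 0 of the 9 were A1 and A4 non-evolved both above or both below the range of the others, as they were in 59 of all 11810 bins (0.5%), and limma called 0 between the states. Their median difference was 0.04, beside -0.002 over all bins, and the farthest from 0 was 0.10 in SPT15, the TATA-binding protein gene. Of the 14 pheromone pathway genes, from the receptors STE2 and STE3 to the transcription factors STE12 and MCM1, 0 stood outside the range and 0 were called. At that background share, lists of this size say nothing by a count of 0. The median difference of the pheromone pathway genes was -0.02, and the farthest was -0.16 in the MAP kinase gene KSS1. In both lists the value of a gene covers the 1 to 5 bins it overlaps, while the background is of single bins. The shares and medians set side by side are therefore of unlike units.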

How the data were processed

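Genomic DNA libraries were made by tagmentation and sequenced as paired-end reads, per the labels' protocols. Per the file headers, the authors deposited 1 log2 copy ratio for every bin of 1 kb and sample, without replicate pooling. The submitters' processing notes list GATK, with no version, beside BWA 0.7.17, Trimmomatic 0.39 and Picard 2.27.1. Duplicate removal, mapping-quality filters and GC correction were not given in the sources used here. Contig names and lengths are those of R64, the assembly of the gene table, and W303 can differ from it.

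Read counts were recovered from the ratios (100% of values whole within 0.01 reads), and an empty bin was given 0.5 reads. Bins without reads in at least 50% of samples were left out of the tests. Levels were centred on the chromosome median of the sample. Paired sign-flip permutation tests used 100000 resamples. Single bins were tested with limma 3.58.1 in R 4.3.3, with the line as block and a threshold of 0.05, after a check on simulated data. Other steps used Python 3.11.15, numpy 2.4.6 and pandas 2.3.3.

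Lines were paired by the code shared between titles. Deviations of bins from their group means correlated between the states of a line at -0.05 to 0.11 (median 0.04), over 0.1 in 2 of 20 lines, so the pairing rests on the labels. Of the 383 pairs of samples compared, which are not all possible pairs, none agreed within sampling noise, the lowest chi-square per degree of freedom being 1.68. The labels do not say whether lines were separate isolates, so p-values measure the spread between these samples. The members, lists and comparisons were chosen with earlier results of these data known. The genes named were the 3 members, those of the flanking bins, those of the 5 bins most like each copy, and list members that stood apart. SPT15, KSS1, BUB3, LEU2, ENA1, YNL054W-B and the bin called on chromosome XV were named after their values were seen. A planned list of genes of other retrotransposon families could not be built, because the gene table holds no descriptions.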

Additional observations from a re-analysis of the deposited data

How the results depend on the processing

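Of 44 alternative values, 28 kept their direction and their side of the threshold or moved by less than the spread. The differences between states passed the threshold under no setting that was tested, and 5 of them changed sign, besides 2 changes of sign when a line was left out. Evolved minus non-evolved became 0.019 for the chromosome VII copy without A1 and A4, and for the chromosome IX copy 0.028 centred on the flanking bins, 0.012 as a median of log2 values and 0.017 without A1 and A4. Evolved_Bub3 minus evolved on chromosome IX became 0.051 centred on the flanking bins. Leaving out each of the 3 lines gave -0.246 to 0.039 on chromosome VII and -0.032 to 0.023 on chromosome IX, above 0 without E3 and without G4, respectively, and these values have no test. Without the pairing (no replicate block) the values stayed -0.055 (permutation test, p = 0.385) and -0.0013 (p = 0.95). The A1 and A4 difference at the chromosome VII copy was 0.97 over inner bins only, an alternative added after the data were seen. Bins at least 1 away from the others numbered 9, 442 when centred on the sample baseline, where 267 lay on chromosome XII and 167 on chromosome XI, 36 at a distance of 0.5, and 1 among bins of at least 20 reads (added after the data were seen). Bins outside the range numbered 59, 208 against the other 18 non-evolved lines only, where fewer samples set the range, and 1213 when centred on the sample baseline, of which 1007 lay on chromosome XII. The single bin called by limma was lost, leaving 0, without the replicate block (572 bins at an unadjusted p under 0.05), without the filter (576), on the sample baseline (496), without A1 and A4 (566), and with a trended, robust fit (563). Depth limits single bins: 22 reads in the edge bin of A4 non-evolved say little, and the 4 inner bins together held 243 to 587 reads in the other samples.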

Other observations

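Other long genes that share their start with a shorter gene, as YGR109W-B does with YGR109W-A, were looked at as a group chosen after the data were seen. There were 40 such genes of at least 4000 bp besides YGR109W-B, with 176 bins wholly inside them, and in 91 of these bins the median sample had 0 reads. Their copy ratios over the other 44 samples had a median of 0.015, and the highest was 0.409, in YNL054W-B. YGR109W-B stood above all 40, at 0.461. In 0 of the 40 were A1 and A4 non-evolved both above the range of the others over the inner bins, and in 0 were both below it. Over all 11810 bins tested the counts were 25 above and 34 below, and many of these genes had few or no reads, so the 0 is no result about them.

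In the other direction, 5 bins with a median of at least 20 reads had A1 and A4 non-evolved both at least 0.5 under the median of the others. In none of the 5 were both below the range of the others. The 5 were the bin of LEU2 and the bin before it on chromosome III, the first bins of chromosomes VII and XII, and a bin of YNL284C-B on chromosome XIV. The first bin of chromosome XII was low only relative to its chromosome, which stood 0.98 to 0.99 above the baseline in these samples. It held 168 reads in A1 and 218 in A4 non-evolved, above their median bins of 130 and 174. In the bin before LEU2, A1 and A4 non-evolved stood at -1.08 and -1.13, their evolved samples at -1.02 and -1.05, and the wildtype at -1.07 to -0.91. All of the other 44 samples together ran from -1.23 to 0.09 there (median -0.43).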
